A study of Mus musculus with 2 samples.

Results

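Snhg1, Zfas1, Gas5, Snhg8, Snhg12 and Snhg6 are 6 mouse genes whose spliced RNAs encode no protein and whose introns hold small nucleolar RNAs (snoRNAs). They were taken by symbol from the 32285 genes of the deposited matrices, in which each had 1 row. They had been put together because earlier results of these data showed them varying together across cells, being higher in cells with Ddit3 RNA and differing between the libraries, so all values of these kinds below are descriptions with no test. The cells were from gastruloids, aggregates of mouse embryonic stem cells that begin to form the axes of the embryo in culture. One group was R1 embryonic stem cells of wild-type genotype. The other was labelled as a double mutant of Sp5 and Sp8, zinc-finger transcription factors that act in Wnt signalling. Both were grown from about 300 cells per aggregate in serum-free N2B27 medium, treated with CHIR (3 µM), which blocks the kinase GSK3 and so turns on Wnt signalling, for 12 hours starting on day 2, and collected at day 2.5. The aggregates of each genotype were pooled into 1 single-cell library, and the labels do not say how many mutant clones were used.

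A snoRNA host gene is transcribed and spliced like other genes. The intron that is cut out is trimmed to a snoRNA, which guides ribose methylation (C/D box class) or pseudouridylation (H/ACA box class) of ribosomal and other RNAs. The spliced host RNA that remains is often exported, bound by ribosomes and destroyed by nonsense-mediated decay, and Gas5 in particular is known to accumulate when translation or growth is held back. Many hosts, like the genes of ribosomal proteins, start with a pyrimidine tract (5′ TOP), which ties their translation to nutrient signalling. Ddit3 encodes CHOP, a transcription factor made in the integrated stress response.

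The gene identifiers of the matrices matched GENCODE M21 (GRCm38) for 6 of the 6 genes. Snhg1 (ENSMUSG00000108414) lies at chr19:8723475-8726443 on the plus strand and holds 8 annotated snoRNAs, Snord22 among them. Zfas1 (ENSMUSG00000074578, chr2:167062934-167065862, plus strand) holds 3, including Snord12, and overlaps Znfx1 on the opposite strand. Gas5 (ENSMUSG00000053332, chr1:161034422-161038539, plus strand) holds 10, Snord47, Snord78 and Snord80 (annotated with 2 identifiers) among them, and overlaps Zbtb37 on the opposite strand. Snhg8 (ENSMUSG00000104960, chr3:123507552-123508404, minus strand) holds Snora24. Snhg12 (ENSMUSG00000086290, chr4:132308623-132311024, plus strand) holds 5, of which 4 are of the H/ACA class (Snora16a, annotated with 2 identifiers, Snora44 and Snora61) and 1 is Snord99. Snhg6 (ENSMUSG00000098234, chr1:9941959-9944118, minus strand) holds Snord87 and overlaps Mcmdc2 on the opposite strand. None of these snoRNAs has a row in the matrices, which count polyadenylated RNA at its 3′ end, so the values below are of the host RNAs alone. Reads of a host and of an antisense gene that overlaps it may not have been told apart where counting ignored strand, and the strand setting is not given in the sources used here.

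RefSeq promoters (GRCm38.p6, 250 bases before to 50 after the annotated start) were found for 5 of the 6 genes. They are shown because 4 of the 5 held a match to a start-site element. In Gas5 it lay at 1 of its 2 annotated starts, and in Snhg1 (TTTATA) it fitted only on the opposite strand. Whether such a match bears on the genes moving together was not tested. Capitals mark TATANA (either strand) lying wholly 35 to 20 bases before the start, and TGACG (either strand), the core of the cAMP response element TGACGTCA that ATF and CREB factors bind. Of the 2 annotated starts of Gas5, the window of the downstream one is shown, since the other held no TATANA.

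Snhg1, chr19:8723237-8723536, plus strand: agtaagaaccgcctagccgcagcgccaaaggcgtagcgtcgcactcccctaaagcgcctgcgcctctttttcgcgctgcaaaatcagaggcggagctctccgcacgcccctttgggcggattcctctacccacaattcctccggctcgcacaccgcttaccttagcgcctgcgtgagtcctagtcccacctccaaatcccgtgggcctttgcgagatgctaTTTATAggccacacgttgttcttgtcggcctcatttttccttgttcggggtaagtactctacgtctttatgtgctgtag
Gas5, chr1:161034916-161035215, plus strand: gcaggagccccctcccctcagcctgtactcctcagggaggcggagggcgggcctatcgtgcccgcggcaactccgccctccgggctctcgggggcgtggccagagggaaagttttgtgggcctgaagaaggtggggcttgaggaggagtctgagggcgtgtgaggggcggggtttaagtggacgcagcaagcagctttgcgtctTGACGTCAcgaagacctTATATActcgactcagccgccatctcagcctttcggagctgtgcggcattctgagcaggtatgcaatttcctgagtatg
Snhg12, chr4:132308428-132308727, plus strand: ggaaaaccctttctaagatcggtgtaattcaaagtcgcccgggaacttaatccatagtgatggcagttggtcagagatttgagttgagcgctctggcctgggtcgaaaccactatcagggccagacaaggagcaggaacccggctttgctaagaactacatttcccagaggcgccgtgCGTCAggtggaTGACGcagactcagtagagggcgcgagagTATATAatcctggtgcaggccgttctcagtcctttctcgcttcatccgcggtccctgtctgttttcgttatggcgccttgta
Snhg8, chr3:123508287-123508586, minus strand: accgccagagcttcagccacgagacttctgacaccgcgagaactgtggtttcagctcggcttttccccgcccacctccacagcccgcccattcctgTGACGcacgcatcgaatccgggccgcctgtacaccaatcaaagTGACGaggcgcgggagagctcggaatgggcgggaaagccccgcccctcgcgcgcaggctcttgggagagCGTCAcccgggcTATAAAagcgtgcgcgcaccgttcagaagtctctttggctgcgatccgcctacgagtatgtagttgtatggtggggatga
Zfas1, chr2:167062684-167062983, plus strand: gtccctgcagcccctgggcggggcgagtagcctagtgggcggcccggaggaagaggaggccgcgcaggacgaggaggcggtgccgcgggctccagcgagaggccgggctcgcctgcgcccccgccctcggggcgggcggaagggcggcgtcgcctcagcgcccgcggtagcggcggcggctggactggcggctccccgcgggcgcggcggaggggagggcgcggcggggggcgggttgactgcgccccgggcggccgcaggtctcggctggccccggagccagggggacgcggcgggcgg

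The TATANA match in that window was present in Snhg1, Gas5, Snhg12 and Snhg8, against 3.19% of the 32851 RefSeq promoters. TGACG was present in Gas5, Snhg12 and Snhg8, against 20.8% of promoters, and the whole TGACGTCA in Gas5, against 1.79%. Zfas1 had neither; its window was 83% G and C and held GGGCGG, the GC box bound by Sp-family factors, which was also present in Gas5, Snhg1 and Snhg8 and in 35.7% of all promoters. A pair of motifs bound by stress or growth factors, TGATGNAA (C/EBP-ATF composite) and CACGTG (E-box), were in none of the windows, against 3.97% and 7.15% of promoters. Within 15 bases of the start, the longest run of pyrimidines was TCCTTTCTC in Snhg12, TTTTTCCTT in Snhg1, TCTCTTT in Snhg8 CCTTTC in Gas5 (CCC at its other start) and CCCC in Zfas1. A run of at least 7 pyrimidines was thus present in 3 of these 5 genes, in 18.6% of all promoters and in 46.8% of the 77 promoters of ribosomal protein genes. A match is only a match of letters.

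After the filters (at least 2500 UMIs and 1000 genes, at most 10% mitochondrial UMIs), the library labelled wild type held 8707 cells and 97157331 UMIs, and the library labelled double knockout 10587 cells and 97644169 UMIs; a UMI stands for 1 captured RNA molecule. Median UMIs per cell were 10571 and 8637, and 27 barcode sequences occurred in both. In what follows, the first value of a pair is of the library labelled wild type and the second of the library labelled double knockout. The targeted genes went against the labels: Sp5 was at 109 and 479 CPM (UMIs of a gene per 1000000 UMIs) and Sp8 at 20.8 and 40.1 CPM, higher in the library labelled double knockout. Reads at the 3′ end outside a deleted part do not check a deletion, so any direction between the libraries rests on the labels as given. With 1 library per genotype no difference has a replicate check, and the 95% intervals given are exact ones that cover counting error only.

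The 6 RNAs together stood at nearly the same level in the 2 libraries, 1075.5 and 1061 CPM, with a log2 ratio of -0.02 (-0.03 to -0.01), but Snhg8 and Snhg6 were lower and Snhg12 was slightly higher in the library labelled double knockout. Snhg6, host of Snord87, was at 45.7 and 35.2 CPM, a log2 ratio of -0.38 (interval -0.44 to -0.31). Snhg8, host of Snora24, was at 174 and 146 CPM, a log2 ratio of -0.25 (-0.28 to -0.22). Snhg12, the host of several H/ACA snoRNAs, was at 106 and 118 CPM, a log2 ratio of 0.16 (0.12 to 0.20). Snhg1 differed less, at 210 and 222 CPM with a log2 ratio of 0.08 (0.05 to 0.11). Zfas1 (90.6 and 92.2 CPM) and Gas5 (449 and 447 CPM) had ratios whose intervals held 0, and their sign turned with the setting, Gas5 to 0.02 with TMM scaling and Zfas1 to -0.01 without the cluster led by Ddit3 described later. These are levels of 3′ counts and do not compare one gene with another.

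**Figure D1:**
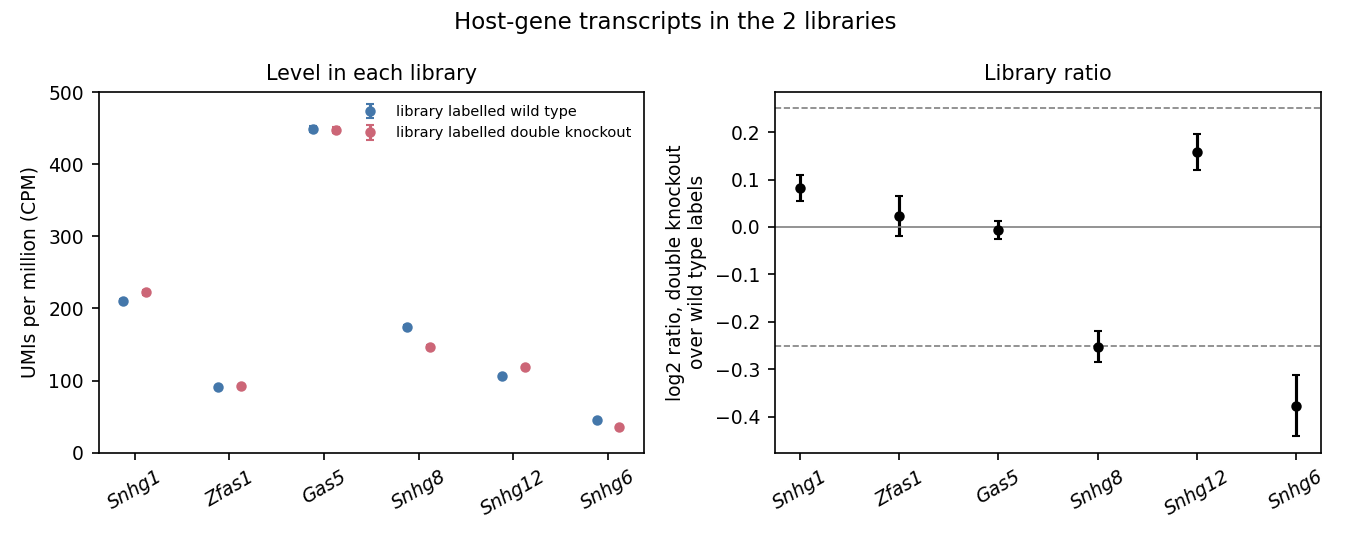
Left, level of each host RNA in CPM in each of the 2 libraries. Right, log2 ratio of the library labelled double knockout over that labelled wild type; bars are exact 95% intervals for counting error, and dashed lines mark a log2 ratio of 0.25 either way. Snhg6 sits at -0.38 and Snhg8 at -0.25, while Gas5 and Zfas1 lie at 0 within their intervals.

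Of the 6, 2 had a log2 ratio of at most -0.25 and 0 one of at least 0.25; Snhg8 was at -0.22 to -0.24 under the 3 other scalings and so outside the count there. Over the 7607 genes with a mean of at least 10 CPM, which all 6 passed, 4.67% were at most -0.25 and 3.13% at least 0.25, with a median of -0.02 and an SD of 0.16. Of 13 other listed noncoding hosts that passed this minimum, 1 was past 0.25 (Snhg14, 104 and 133 CPM) and 0 were below -0.25; their median was 0.03. The protein-coding hosts (20 genes, such as Nop56, a snoRNP core protein) had a median of 0.00 and none past the fold. The 15 nonsense-mediated decay factors had a median of 0.01, led by Magohb of the exon junction complex at -0.19, and the 16 snoRNP proteins a median of 0.00, led by Nhp2, an H/ACA core protein, at 0.21. In the ATF4 stress list, 12 of 22 genes were at least 0.25 and 2 at most -0.25, with a median of 0.29; Chac1, which breaks down glutathione, was at 15.0 and 25.5 CPM, Trib3, a pseudokinase that feeds back on ATF4, at 8.82 and 13.7 CPM, and Asns, asparagine synthetase, at 98.0 and 152 CPM. Slc3a2, a subunit of amino acid transporters, starts 106 bases from Snhg1 on the opposite strand and was at 198 and 251 CPM, a log2 ratio of 0.35 (0.32 to 0.38), beside 0.08 for Snhg1. Znfx1, a helicase-like protein gene overlapping Zfas1, was at 4.78 and 5.03 CPM, and Zbtb37, a zinc-finger gene overlapping Gas5, at 12.8 and 12.6 CPM.

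Across cells, Snhg1, Zfas1, Gas5 and Snhg12 varied together with higher correlations than Snhg8 and Snhg6. Correlations were taken between counts corrected for each cell's depth (Pearson residuals), over 8707 and 10587 cells; cells of a library share its preparation, so r is a description. The median r of the 15 pairs was 0.09 and 0.12. The pair of Snhg1 and Gas5 was highest, at 0.30 and 0.43, followed by Zfas1 and Gas5 (0.29) in the library labelled wild type and by Snhg1 and Zfas1 (0.41) in the library labelled double knockout. Of the pairs with Snhg6, that with Snhg1 had r of 0.043 and 0.048. Over all genes against the 6, the 99th percentile of r was 0.046 and 0.051. In both libraries the pairs of Snhg6 with Snhg8 (0.033 and 0.041) and with Snhg1 were under that percentile. The pair of Snhg6 with Snhg12 (0.037) was also under it in the library labelled double knockout.

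**Figure D2:**
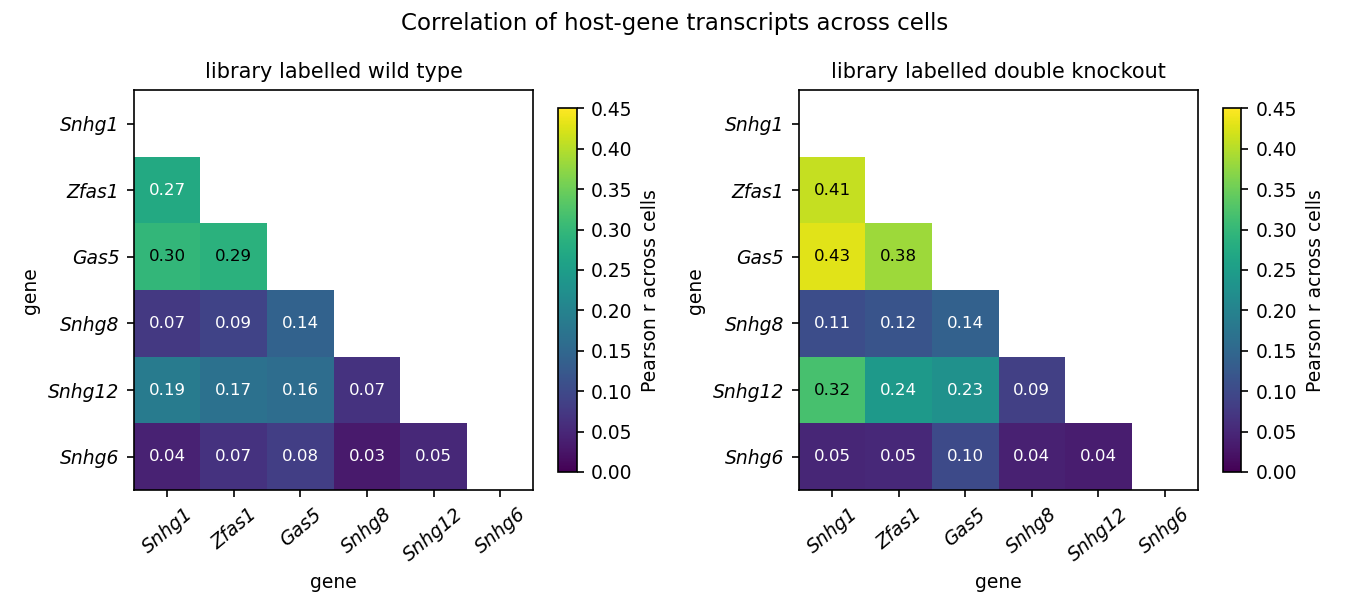
Pearson correlation across cells of the depth-corrected counts of each pair of host RNAs, in the library labelled wild type (8707 cells, left) and double knockout (10587 cells, right). The block of Snhg1, Zfas1 and Gas5 runs from 0.27 to 0.30 on the left and from 0.38 to 0.43 on the right, and the row of Snhg6 stays at 0.10 or lower.

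For Snhg1, 3 of its 4 closest genes among 7606 were members, Gas5 (rank 2), Zfas1 (rank 3) and Snhg12 (rank 4), in both libraries. Despite their lower r, Snhg8 and Snhg6 also had a member among their closest genes. Gas5 was at rank 1 and 2 for Snhg8 and at rank 3 and 2 for Snhg6, while Snhg6 was at rank 243 and 52 for Snhg8. The gene outside the 6 with the highest mean r to them was 2410006H16Rik, another noncoding snoRNA host (0.31), followed by 1110038B12Rik, also a host (0.12), Eef1a1, the translation elongation factor (0.11), Malat1, a nuclear noncoding RNA (0.11), Rpsa, a ribosomal protein that itself hosts snoRNAs (0.11), Snhg5 (0.09), Cd63, a tetraspanin of late endosomes and lysosomes (0.09), and Snhg16 (0.08). The lowest were Sumo2, the small ubiquitin-like modifier (-0.09), Pfn1, which binds actin (-0.08), H2afz, a histone variant (-0.08), and Ppia, a prolyl isomerase (-0.07). Of the 30 highest, 15 were ribosomal protein genes and 4 were noncoding hosts, out of 81 and 16 among the 7601 genes. The 16 noncoding hosts had a wide range: their median of this mean r was 0.02, against 0.04 for ribosomal protein genes and 0.00 for all genes. Taken by the thinned count of Snhg1, Zfas1 was at 85.4 and 87.7 CPM in cells with none, at 313 and 337 CPM in the 25 and 40 cells with 4 or 5, and at 1466 and 1143 CPM in the 5 and 34 cells with more. The variance of the thinned Snhg1 count over its mean was 1.16 and 1.56, and that of Snhg6 was 1.03 and 1.05. Slc3a2, the neighbour of Snhg1, had r of 0.02 and 0.05 with it, and Atf4 itself 0.00 and 0.02.

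A small cluster of cells stood apart in these RNAs. When the cells of both libraries were clustered without the 6 genes, the other noncoding hosts, ribosomal protein, mitochondrial and cell cycle genes, 1 of the 10 clusters was led by Ddit3 and Pmaip1 (NOXA, which promotes apoptosis), followed by Bhlhe41, Bend7 and Prph. It held 41 and 68 cells, 0.47% and 0.64% of each library. Each of the 6 host RNAs was higher there than in the other cells. None had been used to form the cluster, but the 6 had been chosen partly for being higher in cells with Ddit3 RNA. Their level in a cluster led by Ddit3 is therefore a description and no independent check. Snhg1 was at 1013 CPM (906 to 1128) against 207 in the library labelled wild type, and at 1883 against 214 in the other, 4.89-fold and 8.80-fold. Zfas1 was at 565 against 89.1 CPM and 844 against 88.5 CPM, 6.36-fold and 9.55-fold. Gas5 was at 1778 against 444 CPM and 2627 against 436 CPM, 4.01-fold and 6.02-fold. Snhg12 was 4.10-fold and 5.36-fold higher, Snhg6 2.75-fold and 3.84-fold, and Snhg8 2.09-fold and 2.57-fold. In both libraries Zfas1 and then Snhg1 had the highest fold and Snhg8 the lowest, while Gas5 and Snhg12 changed places. The fold of each of the 6 was larger in the library labelled double knockout, with intervals apart for Snhg1, Zfas1 and Gas5 and overlapping for the others. Ddit3 itself was 10.7-fold and 23.5-fold higher in the cluster, which follows from the cluster having been singled out by Ddit3. That fold rested on 19 and 63 UMIs, in 15 of the 41 and 32 of the 68 cells. The differences between the libraries in these folds were not tested. Of all genes, 5.6% and 4.71% were at least 2-fold higher in these cells, as were 6 of the 6 members; 7.73% and 7.74% were at least 2-fold lower, and 0 members.

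**Figure D3:**
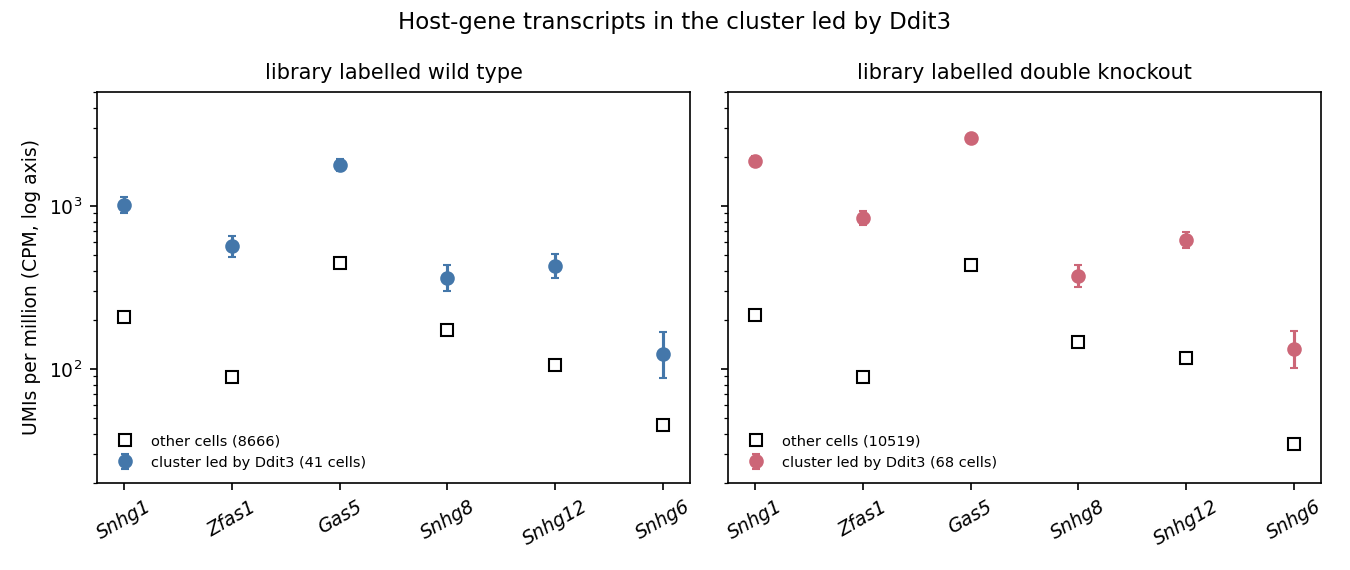
Level of each host RNA (CPM, log axis) in the cluster led by Ddit3 (filled, with exact 95% intervals for counting error) and in all other cells (open squares), per library. Filled points lie above the open squares for each of the 6, by 2.09-fold (Snhg8) to 6.36-fold (Zfas1) on the left and 2.57-fold to 9.55-fold on the right.

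The level was uneven even among these cells: Snhg1 had a median of 534 and 1032 CPM per cell, with 0 in the lowest cell of each library and 3387 and 8811 CPM in the highest. Other noncoding hosts did not all follow. 2410006H16Rik was 7.70-fold and 8.59-fold higher, 1110038B12Rik 3.06-fold and 3.48-fold, and Snhg16 1.80-fold (34.0 against 19.8 CPM, 11 UMIs) and 6.06-fold. Snhg3 stood at 37.0 against 58.0 and 29.9 against 51.5 CPM, and Dancr at 40.1 against 66.5 and 61.8 against 65.8 CPM. Over the 16 other noncoding hosts, 2 and 5 were at least 2-fold higher and 2 and 1 at least 2-fold lower, with a median log2 ratio of 0.04 and -0.02. The 20 protein-coding hosts had a median of 0.26 in both libraries with none past 2-fold, and the 81 ribosomal protein genes a median of 0.32 and 0.33, beside -0.09 and -0.10 for all genes.

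Several other groups differed in these cells. Median mitochondrial shares were 0.40% and 0.51%, against 3.81% and 4.07% for all cells of each library, and 11 and 12 of the 13 mitochondrial genes were at least 2-fold lower; median UMIs were 7164 and 6014. Malat1 was at 11544 against 2554 CPM and 9725 against 2262 CPM. Of 17 p53 targets, 3 and 6 were at least 2-fold higher, among them Mdm2, which degrades p53 (log2 1.50 and 1.30), and Perp, a junction protein and apoptosis effector (2.15 and 2.20). Of 22 ATF4 targets, 4 and 3 were, with Cebpb, a stress-induced transcription factor, at 1.46 and 1.91, and Trib3 at 1.19 and 1.28. Of 27 lysosomal genes, a list added after seeing these data, 17 and 17 were, led by Hexa, a subunit of hexosaminidase (117 against 18.2 and 124 against 17.6 CPM), Cd63 (log2 2.40 and 2.62) and Neu1, a sialidase (2.36 and 2.54). Of 18 cholesterol synthesis genes, also added, 11 and 9 were at least 2-fold lower, and of 7 streak markers 5 and 5, including Eomes, a T-box factor of the streak, at 12.3 against 91.4 and 36.2 against 186 CPM. S phase genes had medians of -0.67 and -0.73, nonsense-mediated decay factors -0.23 and -0.43, and snoRNP proteins -0.26 and -0.37. ER chaperones had medians of -0.56 and -0.33, G2/M genes -0.55 and -0.52, dissociation genes -0.47 and -0.16, naive markers 0.26 and 0.43, primed markers -0.32 and -1.03 and neural markers -0.92 and -1.62. Nkx1-2, the one caudal marker over 10 CPM, had 0 UMIs in the cluster in both libraries, beside 20.3 and 18.1 CPM outside it. Markers of extraembryonic endoderm (18.5 and 8.53 CPM summed) and of fibroblasts (9.26 and 8.53 CPM) did not reach 10 CPM for any gene. The lists of stress, lysosome and marker genes had taken part in the clustering, and the part of mitochondrial share, depth or RNA quality in the high host RNA levels was not tested.

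Cells were also picked from the host RNAs themselves. With each cell thinned to 2500 UMIs, the median cell had 2 UMIs of the 6 RNAs together, and 28 and 60 cells had at least 11, 0.32% (0.21 to 0.46) and 0.57% (0.43 to 0.73). At the threshold itself lay 9 and 9 cells, and just below it, at 10 UMIs, 14 and 27. Of these rich cells, 16 of 28 and 39 of 60 were in the cluster led by Ddit3. Their median mitochondrial share was 0.95% and 1.17%, and 5 of 28 and 16 of 60 had a thinned Ddit3 UMI, against 1.30% and 1.38% of the rest. Without thinning these shares were 39.3% and 51.7% of the rich cells and 5.80% and 4.92% of the rest. They held 1.88% and 5.27% of all Snhg1 UMIs with 0.24% and 0.47% of all UMIs. Cells were also picked on 5 of the host RNAs and the one left out was read: Zfas1 was then 10.4-fold and 11.1-fold higher, Snhg1 7.86-fold and 12.0-fold, Gas5 5.44-fold and 6.17-fold, and Snhg8 2.49-fold and 2.59-fold. Since the 6 had been grouped for varying together, the one left out was not free of that choice. These folds are descriptions, and no share over all genes was taken for these cells. Between the rich cells and the rest, 5.86% and 3.43% of all genes were at least 2-fold higher and 7.62% and 6.01% at least 2-fold lower. Without the rich cells the median r of the 15 pairs was 0.06 and 0.05, and without the cluster led by Ddit3 it was 0.07 in both, with 0.19 and 0.21 left for Snhg1 with Zfas1.

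The cells with a Ddit3 UMI after thinning held more of the 6 host RNAs summed, and the excess was smaller once that cluster was left out. Ddit3 was sparse, at 5.78 and 6.37 CPM. After thinning, 118 and 161 cells had a Ddit3 UMI (called Ddit3-high), 114 and 153 of them just 1. They were compared with 8589 and 10426 cells left with none. Before thinning, these cells held 424 and 421 of all 562 and 622 Ddit3 UMIs, so the compared group was not free of Ddit3 RNA. Snhg1 was at 281 CPM in Ddit3-high cells against 209 in the library labelled wild type, and at 458 against 219 in the library labelled double knockout, log2 ratios of 0.43 (0.27 to 0.58) and 1.07 (0.96 to 1.18). Zfas1 was at 123 against 90.2 and 191 against 90.6 CPM, ratios of 0.45 and 1.08. Gas5 was at 538 against 448 and 746 against 442 CPM, ratios of 0.27 and 0.75. Snhg12 had ratios of 0.35 and 0.61 and Snhg8 of 0.24 and 0.33. Snhg6 had 0.13 (-0.27 to 0.47), whose interval held 0, and 0.46 (0.09 to 0.79). At least 0.5 was reached by 0 and 4 of the 6, and by 3.69% and 3.25% of all genes; at most -0.5 was reached by 0 members and by 2.35% and 2.2% of genes. In the 39 and 51 cells with at least 2 Ddit3 UMIs before thinning, Snhg1 was at 436 and 1161 CPM and Gas5 at 700 and 1285 CPM.

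**Figure D4:**
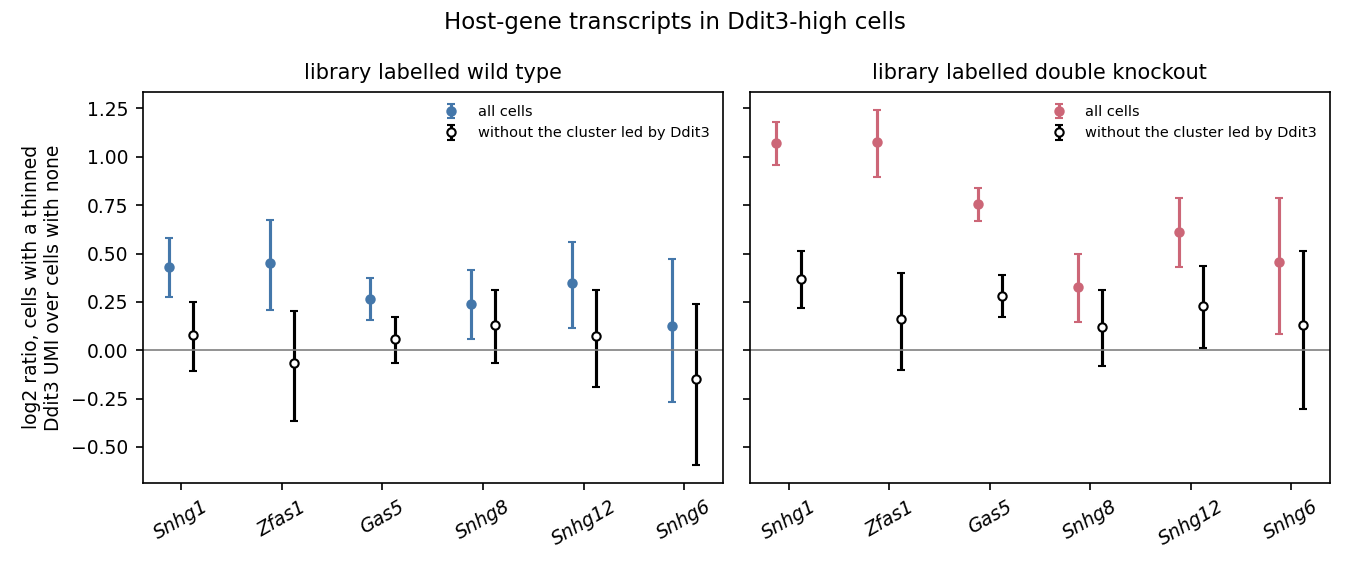
Log2 ratio of each host RNA in cells with a Ddit3 UMI after thinning over cells with none, per library, for all cells (coloured) and without the cluster led by Ddit3 (open); bars are exact 95% intervals for counting error. On the left the summed ratio goes from 0.31 to 0.05, and on the right from 0.78 to 0.26.

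In cells of 8000 to 16000 UMIs, the summed ratio was -0.02 (-0.12 to 0.08) and 0.50 (0.42 to 0.58). The excess was thus not seen in this window in the library labelled wild type. The cluster led by Ddit3 was not taken out here, but its median UMIs, 7164 and 6014, lay below the window. Many of its cells were therefore dropped, and the parts of depth and of the cluster in this change were not tested. Without the cluster led by Ddit3, 112 and 144 Ddit3-high cells remained, and the ratio of the 6 RNAs summed fell from 0.31 to 0.05 (-0.03 to 0.13) and from 0.78 to 0.26 (0.19 to 0.33). Snhg1 then had 0.08 (-0.10 to 0.25) and 0.37 (0.22 to 0.51), Gas5 0.06 and 0.28, and Zfas1 -0.07 and 0.16. Within the cluster, the 6 and 17 cells with a thinned Ddit3 UMI held more of the 6 RNAs than the 35 and 51 without, with summed ratios of 0.94 (0.76 to 1.12) and 0.68 (0.57 to 0.79). Other noncoding hosts behaved in part alike: 2410006H16Rik had ratios of 0.71 and 0.89 in Ddit3-high cells of all clusters and Snhg16 0.41 (-0.15 to 0.88) and 0.78, while the 13 had a median of 0.12 and 0.03. ATF4 targets had medians of 0.08 and 0.15 with 0 and 2 of 22 past 0.5. Nonsense-mediated decay factors had medians of 0.07 and -0.08, and snoRNP proteins -0.09 and -0.10.

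Over the 7 larger clusters Gas5 varied least and Snhg12 most, but Snhg12 did so through cluster 5 alone. Clusters 0 (led by Mixl1 and Gsc, genes of the primitive streak), 1 (Meis2 and Irx3), 2 (Lncenc1 and Rhox5), 3 (Gm38393 and Kpna2), 4 (Cdx2, a caudal factor, and Gm16233), 5 (Nudt7 and Slc25a14) and 6 (Onecut2 and Fam181b) had at least 100 cells in each library. Over these 7, Gas5 ranged 1.37-fold and 1.54-fold from the lowest to the highest cluster, Snhg1 2.16-fold and 1.90-fold, and Snhg12 5.92-fold and 5.05-fold. Without cluster 5, Snhg12 ran only from 100.9 to 114.5 and from 113.0 to 127.9 CPM. That was a narrower range than that of Gas5, from 419.8 to 571.5 and from 422.9 to 623.9 CPM. The wide range of Snhg12 came from cluster 5, with 327 and 359 cells, where it was at 19.3 CPM (12.5 to 28.6) and 25.3 CPM (17.3 to 35.8), 0.18 and 0.22 of its level elsewhere. In the same cells Gas5 was at 417 and 405 CPM, near its level in the library, and Snhg6 at 41.0 and 37.2 CPM. Malat1, which stays in the nucleus, was at 203 against 2616 and 116 against 2327 CPM there, median mitochondrial shares were 0.23% in both, and median UMIs 3666 and 3226. In cluster 5, 30.9% and 31.8% of all genes were at least 2-fold lower than in the other cells, as was 1 of the 6 members in each library, and 12 of the 16 other noncoding hosts; 0.0526% of genes in each library, and 0 members, were at least 2-fold higher.

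**Figure D5:**
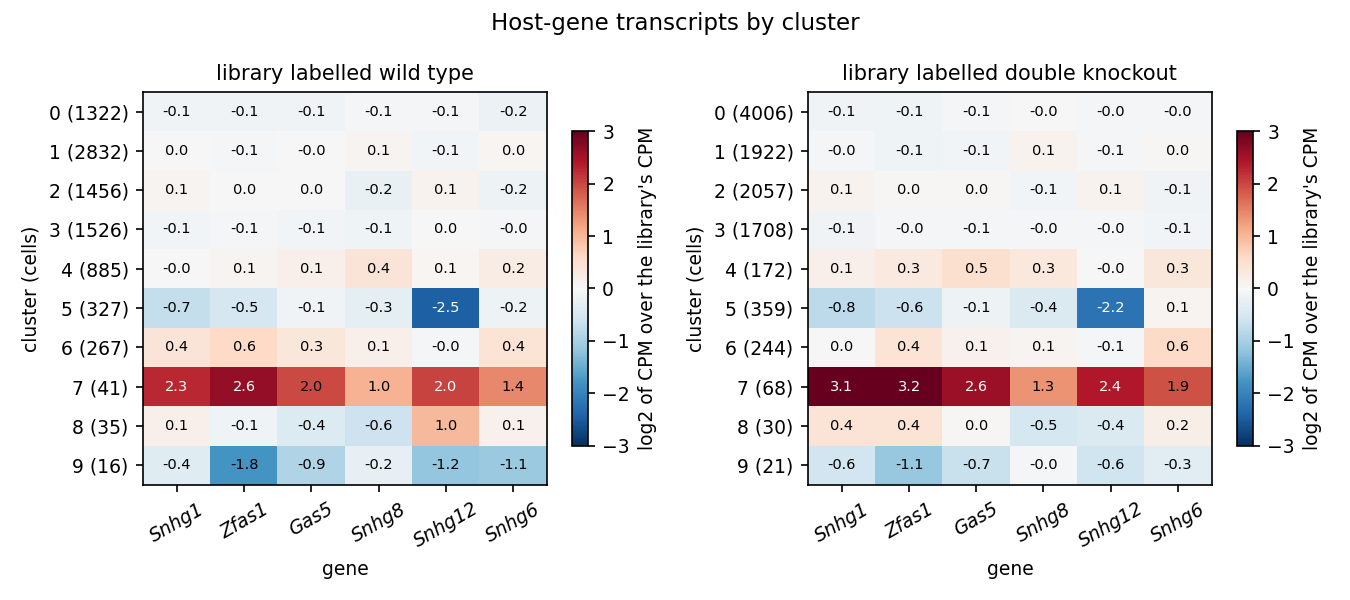
Log2 of each host RNA's CPM in a cluster over its CPM in the whole library, for 10 joint clusters (cell numbers in brackets) of the library labelled wild type (left) and double knockout (right). Cluster 7, led by Ddit3, is high for each of the 6 RNAs, and cluster 5 is low for Snhg12, at 19.3 and 25.3 CPM.

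The lower levels of Snhg8 and Snhg6 in the library labelled double knockout were also present within most of the larger clusters. In clusters 0 to 6 the log2 ratio of Snhg8 was between -0.41 and -0.12, and that of Snhg6 between -0.42 and -0.14 with intervals that held 0 in clusters 4, 5 and 6. For Snhg8 it was -0.20, -0.22, -0.12 and -0.18 in clusters 0 to 3, and below -0.25 only in clusters 4, 5 and 6. Cluster 4, the highest of clusters 0 to 6 in Snhg8 (227 and 181 CPM), held 10.2% and 1.62% of the cells. The part of these shares in the library ratio was not tested. In the cluster led by Ddit3 the ratios were 0.04 (-0.30 to 0.40) for Snhg8 and 0.09 (-0.50 to 0.71) for Snhg6, with intervals that held 0. Snhg1, Zfas1 and Gas5 had ratios of both signs over the same clusters, such as 0.25, 0.24 and 0.33 in cluster 4 and -0.29, -0.16 and -0.23 in cluster 6. Inside the cluster led by Ddit3, the ratio of the 6 summed was 0.60 (0.51 to 0.69), while outside it was -0.04 (-0.05 to -0.03). By mitochondrial share, the 383 and 456 cells under 2% had Snhg1 at 296 and 570 CPM, against 207 and 217 CPM at 2 to 4%, and Gas5 at 665 and 914 CPM against 441 and 430 CPM. The clusters with a median share under 2% went opposite ways. Snhg1 was at 127 and 129 CPM in cluster 5 (327 and 359 cells) and at 1013 and 1883 CPM in the cluster led by Ddit3 (41 and 68 cells). By depth, Snhg12 was at 62.3 and 84.7 CPM in cells with 2500 to 5000 UMIs and at 104 and 119 CPM in those with 10000 to 20000. Cluster 5, low in Snhg12, had median UMIs of 3666 and 3226, and its part in this difference was not tested. Just inside the limit of 2500 UMIs (to 3000) Snhg1 was at 145 and 176 CPM, and just outside it (from 2000) at 118 and 126 CPM.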

How the data were processed

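Single-cell libraries were made with the 10x 3′ v3.1 chemistry. The authors deposited matrices of UMI counts for 32285 genes and 6794880 barcodes per library. The extract protocol names Cell Ranger 8.0.1, and the submitters' processing notes name STARsolo, STAR 2.7.9a, Seurat 5.1.0 and mm10, with no order given.

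Cells were barcodes with at least 2500 UMIs, 1000 genes and at most 10% mitochondrial UMIs; no doublets were removed. Levels are CPM, summed UMIs scaled to a total of 1000000. Log2 ratios had 0.5 added to both sums, with exact 95% intervals. Genes compared had a mean of at least 10 CPM. Thinning was to 2500 UMIs, without replacement. Correlations used analytic Pearson residuals (theta 100). Leiden clusters used 2000 variable genes, 30 principal components, 15 neighbours and resolution 0.5, without the host genes. Scripts ran in Python 3.11.15 (scipy 1.17.1, leidenalg 0.10.2) and were tested on simulated data. TMM factors came from edgeR 4.0.16 and size factors from DESeq2 1.42.0, with no test run.

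The 6 genes and the lists were chosen with earlier results of these data known. The rich-cell threshold is the lowest thinned count reached by at most 0.5% of the cells of both libraries together. Apart from the host genes, named genes were the 8 highest and 4 lowest correlates, neighbours within 5000 bases of a start, up to 3 of the largest ratios per list, and the leading genes of clusters; Dancr, Snhg3, Nop56 and Atf4 were named after their values were seen. The 16 other noncoding hosts are those of GENCODE at 10 CPM or more, without Cct6a, which RefSeq gives as protein-coding. The lysosome and cholesterol lists, the omission of Cct6a, and the settings that leave out the rich cells or the cluster led by Ddit3, were also chosen after seeing the data.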

Additional observations from a re-analysis of the deposited data

Results flagged for a closer look

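Barcodes with 1 to 50 UMIs, which hold RNA free in the droplets and were used in no comparison, also held the host RNAs: the 6 summed stood at 1206 CPM (5552 counts) for the wild-type label and at 1315 CPM (4668 counts) for the double knockout label, beside 1075.5 and 1061 CPM in cells. Snhg1 was at 251 and 305 CPM in these barcodes and Snhg12 at 87.1 and 105.9 CPM. The part of free RNA in the levels of the cells was not tested.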

How the results depend on the processing

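No paired analysis was possible because each genotype has 1 library, and for the same reason no replicate could be left out. The log2 ratio between the libraries of the 6 RNAs summed, -0.02, was 0.0095 with TMM scaling, -0.0026 with DESeq2 size factors, -0.0046 over a total without mitochondrial and ribosomal protein genes, -0.046 without the rich cells and -0.041 without the cluster led by Ddit3. Of the 66 values of single genes, 60 moved by less than their interval; Snhg8 ran from -0.27 to -0.22, across the -0.25 threshold. The summed ratio of Ddit3-high cells in the library labelled wild type, 0.31, was 0.18 with classes from all UMIs, -0.018 in cells of 8000 to 16000 UMIs and 0.053 without the cluster; Zfas1 turned to -0.12 and -0.068 in the latter 2 settings and Snhg12 to -0.24 in cells of 8000 to 16000 UMIs. In the library labelled double knockout, 0.78 became 0.89 with a mitochondrial limit of 5%, 0.89 with doublets removed, 0.48 with classes from all UMIs, 1.00 with each cell at the same weight, 0.50 in cells of 8000 to 16000 UMIs and 0.26 without the cluster. With a minimum mean of 1 CPM, the shares of genes past the fold were 5.7% higher and 8.89% lower between libraries, 14.6% and 7.5% with Ddit3 in the library labelled wild type, and 12.6% and 7.75% in the other. The cause of these shifts was not tested. The median correlation of the pairs, 0.09 and 0.12, ran from 0.061 to 0.097 and from 0.048 to 0.126; it was lowest without the rich cells in both libraries, and in the library labelled double knockout 0.073 on the log2 scale and 0.074 without the cluster. Few Ddit3 UMIs (562 and 622) limit the Ddit3 classes.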
